A study of Homo sapiens with 2 samples.

Results

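The genes that carry cells from G1 into S phase and copy the DNA were compared between a gefitinib-resistant lung adenocarcinoma line and the line it came from. A set of 41 genes was chosen by symbol from the roles of their products, and all 41 were found among the 20985 genes of the deposited RNA-sequencing table. HCC827 ZDR3, the resistant line, descends from HCC827 cells grown in gefitinib, an inhibitor of the EGFR tyrosine kinase, at 10 nM for 1 month and then at a concentration raised 3-fold monthly up to 1 µM. The labels mention 3 individual colonies, without saying whether ZDR3 is 1 of them or whether the drug was present at harvest. Parental HCC827 is an established line that carries an activating EGFR mutation. Each line gave 1 library of polyadenylated RNA, so no difference has a replicate check and no p-value is given. Every difference is one between these 2 libraries.

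Levels are in normalised reads, the authors' library-scaled reads per gene, which are not divided by gene length. A level of 1 corresponds to 138 reads in the resistant library and 143 in the parental one, out of 243549869 and 257192607 gene reads. Ratios are given as log2 of the resistant over the parental level, with 1 added to each. A gene was called expressed where its level reached 1 in at least 1 library. That held for 13777 genes of the table and for 40 members, all but PRIM2. Expressed members had at least 180 reads in either library, and the exact 95% binomial (Clopper-Pearson) interval of the ratio reached at most 20.2% to either side, or 7.68% among the 37 members with 1000 reads or more in both. These intervals cover counting error only.

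Before S phase, the loader proteins CDC6 and CDT1 place rings of the MCM2-7 helicase on replication origins, a step called licensing. Cyclin E with its kinase and the E2F transcription factors, freed from the RB protein, then switch on the genes for replication. CDC45 and the GINS complex activate the helicase. Polymerase alpha-primase starts each strand, polymerases epsilon and delta extend it, the PCNA ring holds them on DNA, and FEN1 and LIG1 join the fragments of the lagging strand. Transcripts of most of these genes peak around the G1/S boundary, and many of the promoters bind E2F.

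The identity of the 2 lines was read from markers first. Keratin genes were abundant in both libraries, with KRT8 at 2118 in resistant and 5701 in parental cells and KRT7 at 1990 and 2615. EPCAM, an epithelial surface antigen, stood at 62.4 in resistant and 527 in parental cells, and the lung lineage factor NKX2-1 at 9.33 and 95.0. The 7 epithelial markers had a median log2 ratio of -1.74 and were all below 0. Of 6 lung markers 4 were expressed, and SFTPC had 0 reads in both libraries. The summed level of 6 fibroblast markers was 1.90 in resistant and 9.53 in parental cells, and that of 4 endothelial markers 0.124 and 0.462. Among 7 leukocyte markers CD68 made up nearly all of the sums of 321 and 157, and CD3E was at 0 in both. The part of these differences in the results below was not tested.

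As a set, the members had slightly lower levels in the resistant library, by less than the 2-fold used as a call. A fold of 2 or more downward was seen for 2 of the 40 expressed members, against a background of 9.68% of all expressed genes, and upward for 1, against 10.6%. These counts, 5% and 2.5% of the members, lie under the background. With a call at 1.5-fold, 10 members were lower, 25% against 18.7% of all expressed genes, and 3 were higher, 7.5% against 18.8%. The remaining 27 members lay within 1.5-fold. The median log2 ratio of the members was -0.36, with quartiles of -0.58 and 0.04, beside a median of -0.03 and quartiles of -0.43 and 0.40 over all expressed genes. Of the 40 members 29 had ratios below 0, or 72.5%, against 52.2% of all expressed genes. Counting intervals lay across 1 for MCM2, MCM5, CCNE2 and E2F1. For every other expressed member they excluded 1. At this depth that held even for UNG, with a ratio of 1.05 (1.01 to 1.08). The same share over all expressed genes was not computed, so these intervals show nothing particular to the members. The 41 members together took 0.160% of the gene reads of the resistant library and 0.194% of those of the parental library. Fewer cells in a phase of the cycle and less RNA per cell in that phase cannot be told apart in bulk libraries.

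**Figure D1:**
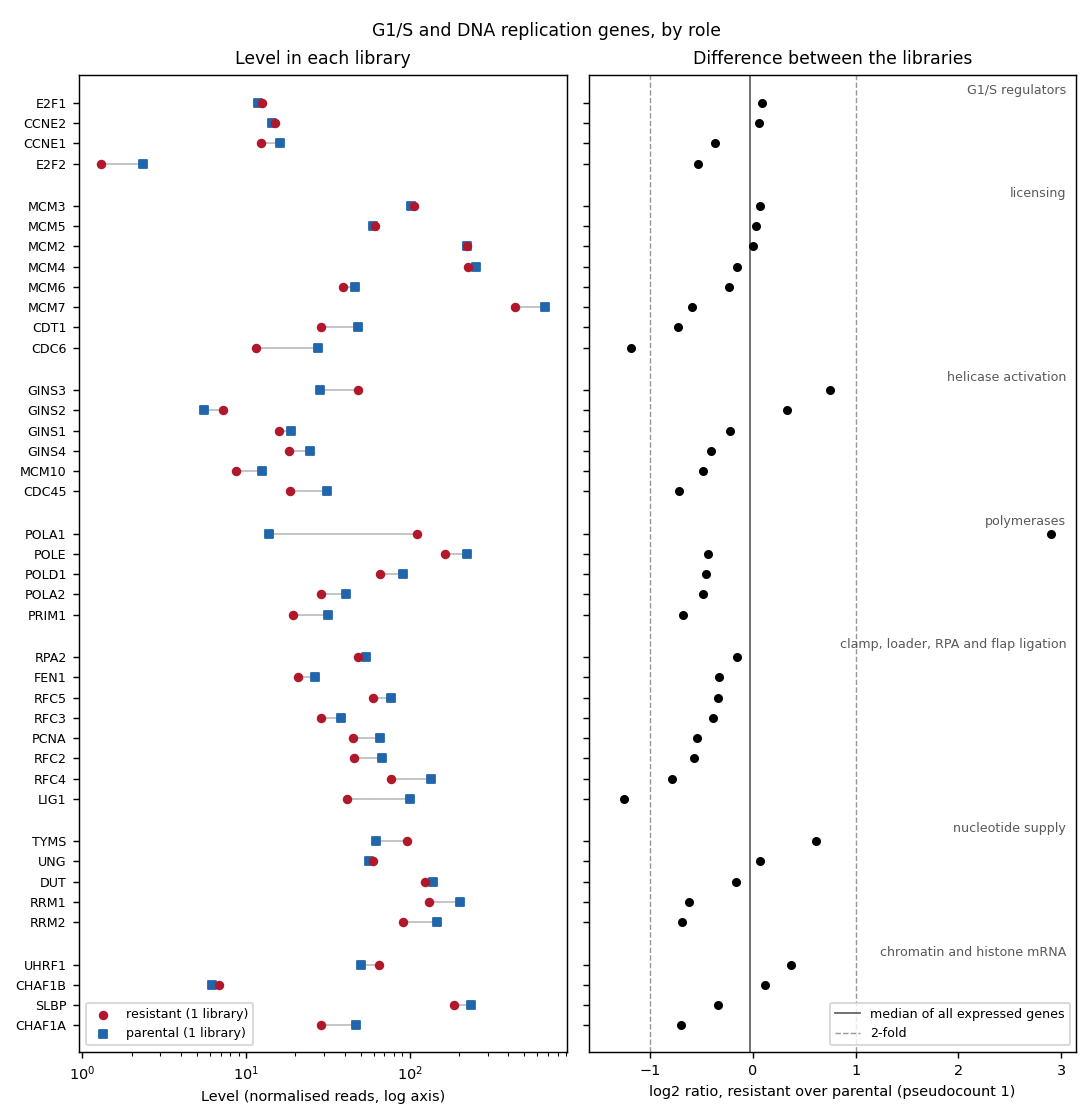
Levels of the 40 expressed members in the resistant library (red circles) and the parental library (blue squares) in normalised reads on a log axis (left), and the log2 ratio of resistant over parental (right), by role. Each point is 1 library or 1 ratio; 27 members lie within 1.5-fold, with CDC6 at -1.19 and LIG1 at -1.26 on the low side and POLA1 at 2.90 on the high side.

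The promoters of the members held the E2F word in a larger share than those of other genes, and the 5′ flanks of 4 are shown: POLA1 and POLA2, subunits of 1 enzyme that differed in opposite directions, MCM6, with 4 matches to the E2F word, and E2F1 itself. RefSeq promoters (GRCh38.p14, 250 bases before to 50 after a transcription start) were found by symbol for 36 members. MCM5, MCM4, CCNE2, GINS4 and RPA2 had no entry. The E2F word was searched as TTTCGCGC or TTTGGCGC on both strands, and 13 of the 36 members had it in at least 1 promoter, or 36.1%, against 2.30% of 9791 expressed genes with an entry. Within the 250 bases before the start alone, 9 of the 36 had it, or 25%, against 1.90% of expressed genes; MCM2, MCM3, CDC6 and GINS1 held it only after or across the start. Over single promoters the shares were 26% of 50 and 1.15% of 35116. The shorter word CCAAT, bound by NF-Y, stood in 52.8% of members and 43.5% of expressed genes (34.6% of all promoters). Both words stood in 25% of members and 1.19% of expressed genes. Such a match is a description of the letters and not a mapped site. Each sequence runs 5′ to 3′ on the gene's strand through the 250 bases before the start, with E2F words and CCAAT, or their reverse complements, in capitals. The windows are chrX:24693668-24693917 (plus strand) for POLA1, chr11:65261712-65261961 (plus) for POLA2, chr2:135876444-135876693 (minus) for MCM6 and chr20:33686386-33686635 (minus) for E2F1.
POLA1: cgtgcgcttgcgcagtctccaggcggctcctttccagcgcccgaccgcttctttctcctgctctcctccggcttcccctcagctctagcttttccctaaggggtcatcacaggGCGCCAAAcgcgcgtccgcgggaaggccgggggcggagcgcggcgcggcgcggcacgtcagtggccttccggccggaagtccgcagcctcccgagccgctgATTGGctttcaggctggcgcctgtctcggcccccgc
POLA2: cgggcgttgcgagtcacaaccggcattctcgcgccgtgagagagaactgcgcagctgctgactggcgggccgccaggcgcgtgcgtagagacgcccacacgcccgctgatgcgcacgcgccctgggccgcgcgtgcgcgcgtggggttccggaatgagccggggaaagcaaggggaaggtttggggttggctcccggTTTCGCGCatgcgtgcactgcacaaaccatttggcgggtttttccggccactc
MCM6: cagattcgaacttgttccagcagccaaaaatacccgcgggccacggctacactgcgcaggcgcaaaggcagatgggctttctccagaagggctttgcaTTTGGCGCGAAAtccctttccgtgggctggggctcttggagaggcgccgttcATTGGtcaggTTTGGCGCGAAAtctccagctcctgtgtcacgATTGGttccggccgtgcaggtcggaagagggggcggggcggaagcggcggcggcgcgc
E2F1: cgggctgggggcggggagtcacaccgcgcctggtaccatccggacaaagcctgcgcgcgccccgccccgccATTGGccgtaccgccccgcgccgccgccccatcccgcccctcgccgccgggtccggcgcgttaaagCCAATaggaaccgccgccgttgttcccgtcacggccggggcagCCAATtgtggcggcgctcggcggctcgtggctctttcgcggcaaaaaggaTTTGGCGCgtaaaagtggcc

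In MCM6 the 4 matches form 2 blocks, since a TTTGGCGC on the gene's strand overlaps a TTTCGCGC on the opposite strand. These blocks begin 152 and 90 bases before the start. The E2F word of POLA1 begins 137 bases, that of POLA2 53 bases and that of E2F1 20 bases before the start. Expressed members with the word had log2 ratios from -1.19 to 2.90, with a median of -0.23 over 13 genes, and those without it ratios from -1.26 to 0.75, with a median of -0.47 over 22. The word thus occurred in promoters of members on both sides of 0, POLA1 and CDC6 among them. Only the 2 exact spellings were searched. Members without the word may therefore hold other E2F sequences, and the 2 medians are not a split by E2F binding.

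Of the 4 G1/S regulators, E2F1 and CCNE2 had ratios near 0, and CCNE1 and E2F2 had lower levels in resistant cells. E2F1 (ENSG00000101412), the E2F activator that drives S phase genes, was at 12.6 in resistant and 11.8 in parental cells, a log2 ratio of 0.08. E2F2, a second activator, was near the minimum level, at 1.31 in resistant cells, against 2.35 in parental cells, or 180 and 336 reads. Its ratio of 0.556 had a counting interval of 0.461 to 0.669. CCNE1, the gene of cyclin E1, was at 12.3 in resistant and 16.2 in parental cells (-0.37). CCNE2, its paralog, was at 14.95 in resistant and 14.3 in parental cells (0.06). CCNE2 shares 37.0% of its annotated exon bases with INTS8 on the opposite strand, and since the strand setting of the counting is not given, reads of the 2 genes in the shared part cannot be told apart. None of the 4 reached 1.5-fold with 1 added to each level, but without it E2F2 stood at -0.85, past 1.5-fold lower.

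The licensing genes comprise those of the helicase ring and of its loaders. Of the MCM2-7 subunits, MCM2 was at 222 in both libraries, with a log2 ratio of -0.002, MCM5 at 61.3 in resistant and 59.9 in parental cells (0.03), and MCM3 at 106 and 101 (0.06). MCM4 was at 228 in resistant and 254 in parental cells (-0.16) and MCM6 at 39.1 and 46.0 (-0.23). MCM7 differed most, at 442 in resistant cells, against 666 in parental cells (-0.59), a ratio of 0.663 with a counting interval of 0.656 to 0.670. Both loaders had a lower log2 ratio than any ring subunit. CDC6 (ENSG00000094804) was at 11.5 in resistant and 27.5 in parental cells (-1.19), and its ratio of 0.417 had a counting interval of 0.393 to 0.442. CDT1 was at 28.6 in resistant and 48.3 in parental cells (-0.73).

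Levels per annotated exon length were uneven across the ring subunits within a library. Per kilobase of annotated exon (GENCODE 29, which need not be the authors' annotation), MCM7 stood at 101 normalised reads in resistant and 152 in parental cells, and MCM5 at 8.35 and 8.16. The highest ring subunit thus exceeded the lowest 12.1-fold in resistant cells and 18.6-fold in parental cells. The divisor is the union of all annotated exons of a gene, 7338 bases for MCM5 and 4386 for MCM7, and not the length of the transcript present. Undivided, MCM6 and not MCM5 had the lowest level in both libraries. All comparisons per kilobase between genes have this limit. MCM7 supplied 44.6% of the summed per-kilobase level of the 6 subunits in resistant cells and 54.1% in parental cells. MCM7 was also the first of 39 members by level per kilobase in both libraries, followed in both by SLBP.

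**Figure D2:**
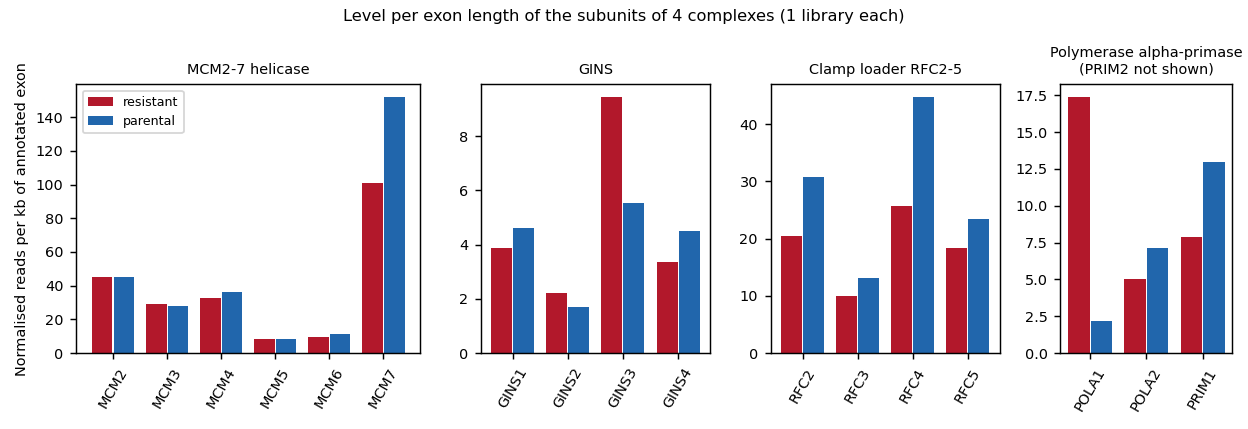
Level per kilobase of annotated exon (vertical axes, normalised reads per kb, different scale in each panel) of the subunits of 4 complexes in the resistant (red, left bar) and parental (blue, right bar) library. Each bar is 1 library, with no error bar. MCM7 exceeds the other ring subunits in both libraries, and POLA1 is the lowest of 3 subunits in the parental library and the highest in the resistant library.

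Genes of helicase activation had ratios on both sides of 0. CDC45, which with GINS turns the MCM ring into the active helicase, was at 18.6 in resistant and 31.3 in parental cells (-0.72). MCM10, which acts at the same step, was at 8.63 in resistant and 12.5 in parental cells (-0.49). The 4 GINS subunits also lay on both sides of 0. GINS3 (ENSG00000181938) was at 48.1 in resistant cells, against 28.3 in parental cells (0.75), with a ratio of 1.70 and a counting interval of 1.64 to 1.77, and GINS2 at 7.26 and 5.57 (0.33). GINS1 was at 15.8 in resistant and 18.7 in parental cells (-0.23), and GINS4 at 18.3 and 24.6 (-0.41). Per kilobase, GINS3 made up 49.96% of the complex's summed level in resistant cells and 33.9% in parental cells.

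POLA1 (ENSG00000101868), the catalytic subunit of polymerase alpha on chromosome X, had the largest difference of any member. Its level was 110.1 in the resistant library, against 13.9 in the parental library (2.90), or 15146 and 1982 reads. The ratio of 7.93 had a counting interval of 7.57 to 8.32. Its partners in the same enzyme were lower. POLA2, the regulatory subunit, was at 28.8 in resistant and 40.8 in parental cells (-0.48), and PRIM1, the primase that makes the RNA primer, at 19.3 and 31.6 (-0.69). Per kilobase, POLA1 supplied 57.3% of the summed level of these 3 subunits in resistant cells and 9.83% in parental cells, and it ranked 15 of 39 members in resistant cells, against 36 in parental cells. Of the annotated exon bases of POLA2, 35.1% also belong to the overlapping gene AP000944.2 on the same strand. PRIM2, the large primase subunit, had 2 reads in the resistant library and 0 in the parental library. Every dividing cell needs this gene, so a count near 0 may be a failed estimate, and no ratio is given.

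The replicative polymerases were lower by similar amounts. POLE, the catalytic subunit of polymerase epsilon on the leading strand, was at 164 in resistant and 222 in parental cells (-0.43). POLD1, that of polymerase delta on the lagging strand, was at 66.1 in resistant and 91.0 in parental cells (-0.46). Without POLA1 the highest log2 ratio of a member was 0.75, and the median over 39 members was -0.37.

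Every one of the 8 expressed genes of the clamp, its loader, RPA and flap processing had a log2 ratio below 0, with a median of -0.47. Below 0 were also 72.5% of all expressed members and 52.2% of all expressed genes. Of the 8 genes 2 were at least 1.5-fold lower, 25% against 18.7% of all expressed genes. LIG1 (ENSG00000105486), the ligase that seals fragments of the lagging strand, had the lowest log2 ratio of all members (-1.26), at 41.2 in resistant cells, against 100.1 in parental cells. Its ratio of 0.412 had a counting interval of 0.399 to 0.425. FEN1, the nuclease that trims the flap before ligation, differed less, at 20.8 in resistant and 26.5 in parental cells (-0.33). PCNA, the sliding clamp, was at 44.7 in resistant and 65.9 in parental cells (-0.55). Among the subunits that load this clamp, RFC4 was at 77.2 in resistant and 134 in parental cells (-0.79), RFC2 at 45.3 and 67.8 (-0.57), RFC3 at 28.7 and 37.8 (-0.39), and RFC5 at 59.9 and 76.2 (-0.34). RPA2, a subunit of the protein that coats single-stranded DNA, lay closest to 0, at 48.3 in resistant and 53.9 in parental cells (-0.15). Of all members, 9 have annotated pseudogenes named after them in GENCODE 29, none of which is in the table: DUT has 8, PCNA, RPA2 and RRM2 have 3 each, TYMS and UNG 2 each, and FEN1, RFC3 and RFC5 1 each.

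Genes of nucleotide supply had log2 ratios on both sides of 0. RRM1 and RRM2, the large and small subunits of ribonucleotide reductase, were lower by like amounts. RRM1 was at 130.3 in resistant and 202 in parental cells (-0.63), and RRM2 at 91.1 and 147 (-0.69), so the share of RRM1 in the per-kilobase sum of both was 64.6% in resistant and 63.5% in parental cells. RRM2 shares 20.2% of its annotated exon bases with another gene on the same strand. TYMS (ENSG00000176890), which makes thymidylate, was higher in resistant cells, at 95.8, against 62.4 in parental cells (0.61), with a ratio of 1.54 and a counting interval of 1.49 to 1.58. TYMS shares 39.1% of its annotated exon bases with ENOSF1 on the opposite strand. ENOSF1 was at 70.3 in resistant and 33.2 in parental cells (1.06), and reads in the shared part cannot be assigned without the strand. DUT, which removes dUTP, was at 123 in resistant and 139 in parental cells (-0.17). UNG, which excises uracil from DNA, was at 59.2 in resistant and 56.6 in parental cells (0.06). Of 40 members checked, 9 share at least 10% of their annotated exon bases with another gene. Besides CCNE2, POLA2, RRM2 and TYMS, these are MCM2 (22.7%), GINS4 (21.2%), PRIM1 (14.9%), DUT (14.5%) and GINS3 (10.9%). The partner of PRIM1 lies on the same strand, and those of MCM2, GINS4, DUT and GINS3 on the opposite strand.

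Genes of chromatin assembly and histone mRNA likewise lay on both sides of 0. CHAF1A, the large subunit of the histone chaperone CAF-1, was at 28.5 in resistant and 47.1 in parental cells (-0.70), while CHAF1B, its middle subunit, was at 6.84 and 6.21 (0.12). UHRF1, which guides DNA methylation to newly copied strands, was at 65.1 in resistant cells, against 50.1 in parental cells (0.37). SLBP, which binds the stem-loop of histone mRNA, was at 187 in resistant and 237 in parental cells (-0.34).

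Outside the 41 members, a further list of replication genes also had a median below 0. It named 53 genes, of which 52 were found and expressed and RECQL4 was not analysed here. Their median log2 ratio was -0.29, with 39 genes below 0, or 75%, against 52.2% of all expressed genes. A 2-fold difference was reached by 5 genes downward and by 1 upward. These are 9.62% and 1.92% of the list, against 9.68% and 10.6% of all expressed genes. At 2-fold the share of lower genes is thus near that of the background. The 5 lower genes were WDHD1, a fork scaffold (40.0 in resistant and 97.0 in parental cells, -1.26), ATAD5, which unloads PCNA (-1.23), TIMELESS, a fork protection gene (-1.10), the RPA subunit gene RPA3 (-1.10), and DSCC1, of an alternative clamp loader (-1.002). The higher gene was CDC7, the kinase that phosphorylates the MCM ring to fire origins, at 150.5 in resistant cells, against 50.4 in parental cells (1.56). With a call at 1.5-fold, 17 genes of the list were lower, 32.7% against 18.7% of all expressed genes. In the other direction 2 were higher, 3.85% against 18.8%.

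Among 27 expressed regulators of G1 that are not members the median was -0.19, and a 2-fold difference was reached by 2 genes downward and 3 upward. These are 7.41% and 11.1% of the list, near the 9.68% and 10.6% of all expressed genes. E2F7, an atypical E2F that represses S phase genes, was at 252 in resistant cells, against 23.0 in parental cells (3.40), a ratio of 10.96 with a counting interval of 10.6 to 11.4. E2F8, its partner repressor, was at 13.3 in resistant and 28.3 in parental cells (-1.04). The CDK inhibitor genes CDKN1C (33.7 in resistant and 11.0 in parental cells, 1.53) and CDKN2D (13.8 and 5.47, 1.19) were higher, and CKS1B, a CDK subunit, was lower (-1.16). RB1 was at 34.3 in resistant and 33.1 in parental cells (0.05), and CCND1, the gene of cyclin D1, at 349 and 298 (0.22).

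Set beside genes of the later cell cycle, the members differed less between the libraries. Of 40 genes of G2 and mitosis all had log2 ratios below 0, against 52.2% of all expressed genes, with a median of -1.08. Of these 40 genes 24, or 60%, were at least 2-fold lower, against 2 of the 40 expressed members and 9.68% of all expressed genes. TOP2A was at 652 in resistant and 2403 in parental cells (-1.88), CDK1 at 77.8 and 223 (-1.51), and the proliferation marker MKI67 at 153 and 389 (-1.34). ANLN (-1.73), KIF4A (-1.72), NEK2 (-1.68), CENPE (-1.62) and KIF2C (-1.46) were the other genes with the largest differences. The G2 and mitosis list took 0.277% of the gene reads in resistant cells and 0.659% in parental cells. With 1 library per line the difference between the lists has no test.

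**Figure D3:**
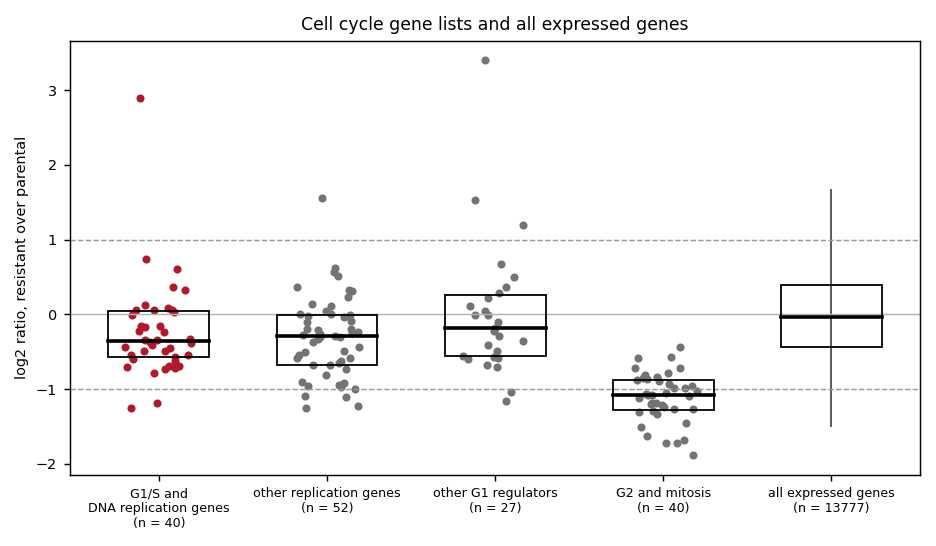
log2 ratio, resistant over parental, of the members (red), 3 other cell cycle lists (grey points, 1 per expressed gene) and all expressed genes. Boxes span the quartiles with the median as a thick line, and the thin line for all expressed genes runs from percentile 5 to percentile 95. The medians are -0.36 for the members, -0.29 for other replication genes, -0.19 for other G1 regulators, -1.08 for G2 and mitosis and -0.03 for all expressed genes.

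Some members lay among genes with ratios of the same sign. For 39 expressed members with a position in GENCODE 29, the ratio was set beside a median over expressed genes around it, the nearest 20 on either side (24 genes for TYMS and 33 for POLE, near chromosome ends). That median was beyond 0.5 in size for 3 members. Around POLA1 it was 0.92, with 28 of 40 neighbours above 0, and POLA1 exceeded it by 1.98. PDK3, an expressed gene next to it, had a log2 ratio of -0.55. Around CDC6 on chromosome 17, where TOP2A is 3 expressed genes away, the neighbour median was -0.74 and 6 of 40 neighbours were above 0. CDC6 differed from that median by -0.45, so it is no longer 2-fold lower on this scale. The ring subunit MCM7 lay -0.60 from its own neighbours, further than CDC6. Around CDT1 on chromosome 16 the median was 0.59, with 37 of 40 neighbours above 0, and CDT1 lay -1.33 from it, past 2-fold. LIG1 lay -1.20 from its neighbours, whose median was -0.06. On this scale 31 of the 39 members were below their neighbours, 2 (LIG1 and CDT1) by at least 2-fold, 1 (POLA1) was at least 2-fold above, and the median difference was -0.26. The same shares over all expressed genes were not computed on this scale. Whether these counts are particular to the members is therefore not known. CDC7, on chromosome 1, had a neighbour median of 0.92 and lay 0.63 above it. CDKN2D, on chromosome 19, had one of 0.94 and lay 0.25 above it, so neither gene is 2-fold higher on this scale. E2F7, on chromosome 12, had one of -0.01 and lay 3.41 above it, and CDKN1C lay 1.56 above its own. Of the lower genes named outside the members, RPA3 (-0.85), DSCC1 (-0.82), CKS1B (-0.90) and E2F8 (-0.998) were not 2-fold lower on this scale. WDHD1 (-1.52), ATAD5 (-1.06) and TIMELESS (-1.04) stayed past 2-fold. TOP2A, with a neighbour median of -0.77, lay -1.11 from it, and the other named G2 and mitosis genes also stayed past 2-fold. The part of such stretches of neighbours in the members' ratios was not tested.

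**Figure D4:**
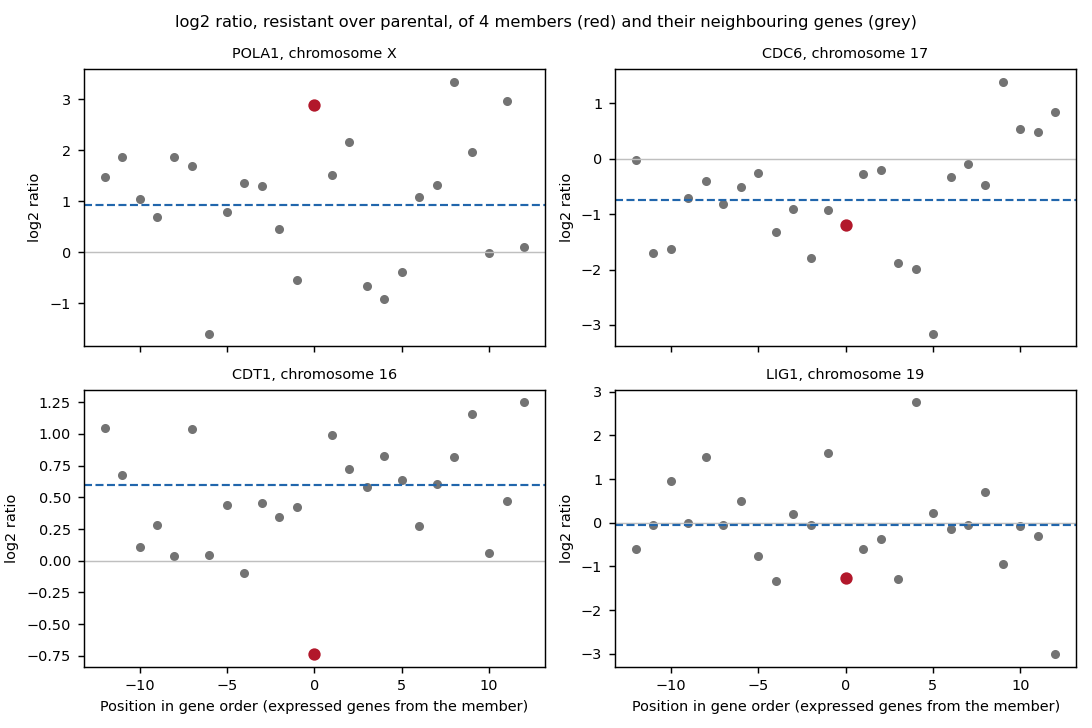
log2 ratio, resistant over parental, of 4 members (red) and of the 12 expressed genes on each side of them (grey) against their position in gene order. The dashed line is the median over the 20 closest genes to either side: 0.92 for POLA1, -0.74 for CDC6, 0.59 for CDT1 and -0.06 for LIG1. POLA1 and CDC6 lie on the same side of 0 as that line, and CDT1 on the opposite side.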

How the data were processed

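Polyadenylated RNA of 1 resistant and 1 parental culture was sequenced on an Illumina HiSeq system, per the labels' protocols. Per the submitters' processing notes, TopHat was used. Which version, and with what genome build, counting tool and strand setting, is not given in the sources used here. Isotope-labelling medium is described in the labels' growth protocol, and whether the sequenced cells grew in it is not stated. The deposited table holds 1 log2 value per gene and library and calls itself RPKM. Back-transformed, all values of 1 to 100000 reads were whole multiples, within 0.1 read, of 1 step per library (0.00727 resistant, 0.00700 parental), so the deposited log2 values are library-scaled reads without a length correction. The 3573 genes (resistant) and 3504 genes (parental) at the lowest value, 0.9 of a step, were taken as 0 reads. Of the 2 columns, the one not named ZDR3 was taken as parental HCC827.

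Ratios used a pseudocount of 1, which understates those of low genes, and a minimum level of 1. Analyses ran in Python 3.11.15 with pandas 2.3.3, numpy 2.4.6 and scipy 1.17.1. The counting of genes past a fold was tested on simulated data first. With 1 library per line, count models were not used. Gene order and union exon length came from GENCODE 29 by Ensembl identifier, with a position for 97.8% of expressed genes. UHRF1 was not matched. Members and lists were chosen with earlier results of these data known. Named outside the members were MKI67, TOP2A, CDK1, RB1 and CCND1 and, per list, up to 8 genes past 2-fold, the largest first. ENOSF1, INTS8, AP000944.2 and PDK3 were named after their values or positions were seen. Alternatives were other pseudocounts, minimum levels and scalings.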

Additional observations from a re-analysis of the deposited data

How the results depend on the processing

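The median log2 ratio of the members stayed below 0 under 7 other settings of pseudocount, minimum level and scaling, from -0.37 with no pseudocount to -0.29 with scaling to the upper quartile. With a pseudocount of 5 the number of members at least 2-fold lower was 1, since CDC6 then stood at -0.98, against 2 in the other settings, and POLA1 was the 1 member at least 2-fold higher in every setting. The number at least 1.5-fold lower ran from 8 to 11, with E2F2 at -0.85 without a pseudocount. The number of members at least 1.5-fold higher was 2 with a pseudocount of 5, where TYMS stood at 0.581, and 3 in the other settings. Of all expressed genes 13.7% were that much higher with a pseudocount of 5 and 18.8% in the main setting. The scalings moved all ratios by at most 0.07 on the log2 scale, and only MCM2 changed sign, from -0.002 to 0.07 at its highest. The widest shift of a member was 0.32. Depth limits E2F2 most, with 180 reads in the resistant library. Spread between cultures is unknown.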

Other observations

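Of the members, 12 have an expressed gene that starts within 1000 bases on the opposite strand, in 13 pairs by GENCODE 29. The 12 members had a median log2 ratio of -0.38 and their 13 partners one of 0.004, with 6 partners below 0, and in 8 pairs the member was the lower gene. Among them, CDC45 (-0.72) stood beside UFD1L (-0.07), PCNA (-0.55) beside CDS2 (0.05), POLE (-0.43) beside PXMP2 (0.20) and MCM7 (-0.59) beside AP4M1 (0.004). The member was the higher gene in GINS3 (0.75) beside PRSS54 (0.03) and TYMS (0.61) beside C18orf56 (0.20). The same held for MCM4 (-0.16) beside PRKDC (-0.47) and MCM2 (-0.002) beside TPRA1 (-0.33). PRIM1 (-0.69) and HSD17B6 (-0.78) were both below 0, and HSD17B6 was at only 1.13 in resistant and 2.65 in parental cells. The pairs named here were chosen after their values were seen. No such count was made over all pairs of expressed genes that start this close, so 8 of 13 is not read as a trait of the members.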
